A study of Mus musculus with 69 samples.

Results

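Retinoic acid is made, cleared and sensed by a small set of proteins, and the 10 genes described here encode the main ones. They were chosen by name: Rdh10 and Aldh1a2 for synthesis, Dhrs3 for the reverse reduction of retinaldehyde, Cyp26a1 and Cyp26b1 for clearance, Crabp1 and Crabp2 for binding in the cytoplasm, and Rara, Rarb and Rarg for the nuclear receptors. All 10 were found among the 55367 gene symbols of a bulk RNA sequencing count table of 69 libraries. The libraries were 3 mES cell clones at 0 h and the populations sorted by fluorescence from mosaic gastruloids at 48, 72, 96, 120 and 144 h, with 3 libraries in each of 23 groups. Mosaic gastruloids are aggregates of mixed ES cells that elongate and form derivatives of the germ layers.

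All clones came from the mouse ES cell line E14Tg2A and were kept in serum with LIF. WT–mCherry carries H2B–mCherry under the EF1α promoter, and WT–emiRFP carries H2B–emiRFP670 under the CAG promoter. Each is a single clone. The p53KO–emiRFP line is a subclone of WT–emiRFP with a homozygous frameshift in exon 4 of Trp53, and it went through selection with the MDM2 inhibitor Nutlin-3a. WT + WT gastruloids started from 150 WT–mCherry and 150 WT–emiRFP cells, and WT + p53KO gastruloids from 150 WT–mCherry and 25 p53KO–emiRFP cells. All gastruloids grew in N2B27 medium with a pulse of the Wnt agonist CHIR99021 from 48 to 72 h, and gastruloids were pooled before sorting. The genotype comparison of p53KO–emiRFP with WT–emiRFP cells therefore also differs in the starting number and in the WT–mCherry neighbours, and each genotype is represented by 1 clone of this colour.

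Retinol is oxidised to retinaldehyde by RDH10 and then to retinoic acid by ALDH1A2, the main retinaldehyde dehydrogenase of the early embryo. CYP26 enzymes oxidise retinoic acid and keep regions such as the tail bud low in it, while paraxial mesoderm and somites produce it. Retinoic acid binds receptors of the RAR family, which sit on DNA with RXR partners at direct repeats of a hexamer, and Rarb, Cyp26a1 and Dhrs3 are known targets of this signal.

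The promoters of Rarb and Cyp26a1 are shown because both are induced by retinoic acid in many cell types and carry the textbook receptor element. RefSeq windows of 300 bases (250 before and 50 after an annotated start, GRCm38.p6) were found for 8 of the 10 genes, in 14 windows. Rdh10 and Crabp2 had no entry. Both strands were searched for a direct repeat of the hexamer AGGTCA, in which the first base could also be G and the third also T, with a spacer of 5 bases (DR5), 2 bases (DR2) or 1 base (DR1). These 3 motifs use the same hexamer. A DR5 was found in Rarb and Cyp26a1 and in 32 of 32851 windows overall (0.0974%). DR2 (0.268% of windows) and DR1 (0.222%) were found in none of the 8 genes. The 250 bases before each start are given 5′ to 3′ on the strand of the gene, with the 17 bases of the DR5 in capitals.
Rarb, chr14:16575477-16575726, minus strand: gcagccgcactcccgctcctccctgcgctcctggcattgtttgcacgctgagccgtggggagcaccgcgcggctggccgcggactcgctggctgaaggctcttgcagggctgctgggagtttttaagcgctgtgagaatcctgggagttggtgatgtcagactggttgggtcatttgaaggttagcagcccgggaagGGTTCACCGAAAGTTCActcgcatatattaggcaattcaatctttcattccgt
Cyp26a1, chr19:37697558-37697807, plus strand: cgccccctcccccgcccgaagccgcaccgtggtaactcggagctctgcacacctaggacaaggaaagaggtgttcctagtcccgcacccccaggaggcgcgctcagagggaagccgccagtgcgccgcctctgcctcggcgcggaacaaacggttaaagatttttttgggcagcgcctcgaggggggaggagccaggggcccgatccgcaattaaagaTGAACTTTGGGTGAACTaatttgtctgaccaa
The Rarb repeat lies on the strand of the gene, 53 to 37 bases upstream of this start (chr14:16575513-16575529). The Cyp26a1 repeat reads on the opposite strand, 32 to 16 bases upstream (chr19:37697776-37697792). A match describes letters only and is no measurement of receptor binding. Both genes had few counts at 48 h and rose between 72 and 96 h.

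In Gencode M21 on GRCm38 the enzyme genes lie at chr1:16105774-16133734 (Rdh10), chr9:71215789-71296243 (Aldh1a2), chr4:144892827-144928209 (Dhrs3), chr19:37697798-37701536 (Cyp26a1) and chr6:84571414-84593908 (Cyp26b1). The binding protein genes lie at chr9:54764748-54773110 (Crabp1) and chr3:87948666-87953376 (Crabp2). The receptor genes lie at chr11:98927818-98974942 (Rara), chr14:16430839-16819156 (Rarb) and chr15:102234938-102257517 (Rarg). Exons of Rarb overlap those of Top2b on the opposite strand over 1793 bases, 34.1% of the exon length of Rarb, and it was not stated whether the counts used strand. Rarb nevertheless had 0 counts in 4 libraries at 48 h that held 2311 to 4130 counts of Top2b. A count of 0 allows up to 3 counts.

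Libraries held 26722541 to 72981570 counts (median 53098728), and the values below are counts divided by median-ratio size factors unless they are called per kb. Trp53 had 1506 to 2589 normalized counts in the 18 p53KO libraries and 13902 to 27511 in the 51 WT libraries. H2bc14, whose level follows the emiRFP transgene, had 4934 to 10387 normalized counts in sorted emiRFP cells and 13.98 to 926 in sorted WT–mCherry cells. From it, RNA of emiRFP cells was estimated at no more than 2.01% of WT–mCherry libraries from WT + WT gastruloids, and at 2.91 to 7.35% at 120 h and 2.26 to 16.8% at 144 h from WT + p53KO gastruloids. The estimate from H2bc21, another histone gene raised in emiRFP cells, was higher, at no more than 6.82%, 8.25 to 25.0% and 2.73 to 19.6%. Sorted populations are mixtures of cell types, so a lower count can mean fewer cells of a type or less RNA in each, and these cannot be told apart here.

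The first question was how the genes change as WT cells leave pluripotency. The synthesis enzyme Aldh1a2, the clearance enzyme Cyp26a1 and both binding protein genes rose steeply between 72 and 96 h, after the CHIR99021 pulse, together with Rarb and Dhrs3. Rara and Rarg were present in every library. Both fell in WT cells up to 72 h. For these steps the 2 WT clones at 0 h and all 3 sorted WT populations later were averaged in 1 edgeR quasi-likelihood fit of all 69 libraries, with Benjamini-Hochberg adjusted p-values. Of the 10 genes, 9 passed the threshold of 0.05 from 0 to 48 h, where 70.3% of all tested genes did, 8 from 48 to 72 h (66.9%), 10 from 72 to 96 h (58.6%), 6 from 96 to 120 h (56.8%) and 7 from 120 to 144 h (55.4%). From 72 to 96 h the median log2 fold change of the 10 genes was 3.12, beside 0.01 over all tested genes.

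Among the synthesis genes, Aldh1a2 had 165 to 288 normalized counts in the 6 WT mES cell libraries (median 269.9) and 38.5 to 99 in the 9 WT libraries at 72 h (median 61.6). At 96 h it had 5834 to 10394 (median 7619), so no library of 96 h came near those of 72 h. The log2 fold change of this step was 6.87 (SE 0.12, adjusted p = 3.1e-45). It fell again by 1.42 on the log2 scale from 96 to 120 h and by 2.57 from 120 to 144 h. Both of these steps average WT populations that differed. In WT–emiRFP libraries the mean was 9762 ± 603 normalized counts at 96 h and 1642 ± 370 at 120 h. WT–mCherry libraries had 6947 ± 971 and then 2081 ± 477 beside WT, but 6571 ± 1138 and then 6787 ± 1525 beside p53KO cells (SD, n = 3 each). Rdh10, the retinol dehydrogenase that supplies ALDH1A2 with retinaldehyde, covered a much narrower range, with group means from 314 ± 21.3 in WT–emiRFP mES cells to 879 ± 78.1 in WT–emiRFP cells at 72 h (SD, n = 3 each). Its change from 72 to 96 h was −0.14 (adjusted p = 0.012), which did not pass without a low-count filter (adjusted p = 0.084) or without replicate 3 (−0.04, adjusted p = 0.62).

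The retinaldehyde reductase gene Dhrs3 went from 20.2 to 34.9 normalized counts in WT libraries at 48 h to 433 to 724 at 96 h. Its log2 fold change from 72 to 96 h was 3.27 (SE 0.11, adjusted p = 4.6e-33). Cyp26a1, which removes retinoic acid and is itself a target of it, had 5.9 to 24.3 normalized counts at 72 h and 1153 to 2629 at 96 h. This was the largest step of the 10 genes, with a log2 fold change of 7.26 (SE 0.18, adjusted p = 1.4e-39). Cyp26a1 then did not pass the test from 96 to 120 h (−0.14, adjusted p = 0.28), an average of WT populations whose means went different ways. Its WT–emiRFP mean was 2399 ± 199.996 normalized counts at 96 h and 1358 ± 286 at 120 h, and WT–mCherry libraries had 2206 ± 324 and then 1796 ± 372 beside WT, but 1432 ± 252 and then 2351 ± 415 beside p53KO cells (SD, n = 3 each). Cyp26a1 fell by 1.39 from 120 to 144 h. Its paralogue Cyp26b1 stayed low throughout, from 6.08 to 40.8 normalized counts up to 96 h and 56.0 to 138 at 120 h in WT libraries, and rose by 1.74 on the log2 scale (SE 0.15) in this last step. The WT populations differed here too. Per kb, WT–emiRFP cells went from 4.94 ± 1.57 at 96 h to 22.7 ± 3.39 at 120 h. WT–mCherry cells went from 4.89 ± 0.80 to 18.5 ± 2.31 beside WT and from 5.49 ± 1.90 to 11.7 ± 1.13 beside p53KO (SD, n = 3 each).

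The binding protein genes had different early courses. Crabp2, which carries retinoic acid to the nucleus, rose by 2.48 on the log2 scale from 0 to 48 h (SE 0.11), fell by 1.17 from 48 to 72 h and rose by 2.96 from 72 to 96 h. Crabp1, whose product holds retinoic acid in the cytoplasm, fell by 0.96 from 48 to 72 h and rose by 3.79 from 72 to 96 h (SE 0.11). Its smaller fall of 0.32 from 0 to 48 h no longer passed without replicate 1 (adjusted p = 0.095). At 96 h WT libraries held 2214 to 4676 normalized counts of Crabp1 and 6859 to 8669 of Crabp2.

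**Figure D1:**
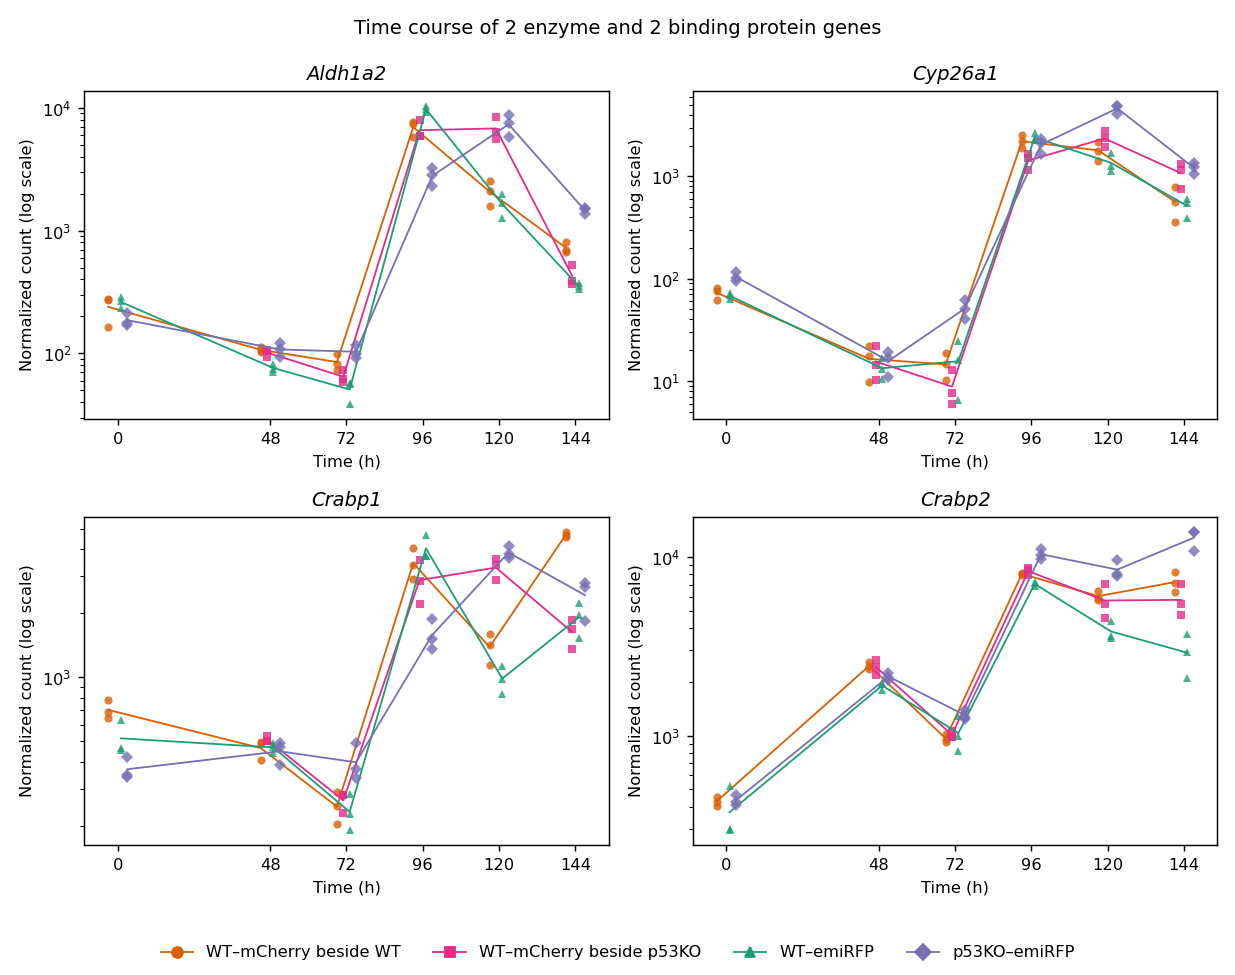
Normalized counts (log scale) against time in h for Aldh1a2, Cyp26a1, Crabp1 and Crabp2, with 1 point per library, lines through group means, and the WT–mCherry clone at 0 h drawn in the colour of WT–mCherry cells beside WT cells. All 4 genes stand above their own 72 h levels at 96 h, and at 120 h the Aldh1a2 points form a high set (p53KO–emiRFP and WT–mCherry beside p53KO cells, 5545 to 8748) and a low set (the other two populations, 1254 to 2549).

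The receptor genes were compared per kb of exon length. Rarg, the receptor typical of ES cells and the caudal embryo, had the highest level in all 23 groups, and its mean share of the summed RAR level was between 62.6 and 83.0%. Rara made up 16.9 to 34.8%. Rarb, the receptor whose gene responds to retinoic acid, was between 0.00256% at 48 h in WT–emiRFP cells and 3.07% at 144 h in p53KO–emiRFP cells. Rarg fell from 13876 to 18055 normalized counts in WT mES cells to 6286 to 7424 at 72 h. Rara stayed between 2207 and 4606 in every library, and its rise of 0.14 on the log2 scale from 72 to 96 h was lost without replicate 1 (adjusted p = 0.075) and without replicate 2 (adjusted p = 0.097).

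Rarb had raw counts of 1, 0 and 0 in WT–emiRFP cells and of 0, 0 and 3 in p53KO–emiRFP cells at 48 h, so no fold change is given against that time point. Its steps to and from 48 h are still counted among those that passed, in WT and in p53KO–emiRFP cells. In WT libraries it had 2.16 to 19.6 normalized counts at 72 h, 60.9 to 111 at 96 h and 154 to 247 at 120 h. The rise from 72 to 96 h was 3.33 on the log2 scale (SE 0.17, adjusted p = 5.8e-25) and that from 96 to 120 h 1.22 (SE 0.11, adjusted p = 1.4e-14). Libraries of consecutive time points did not overlap over these steps.

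**Figure D2:**
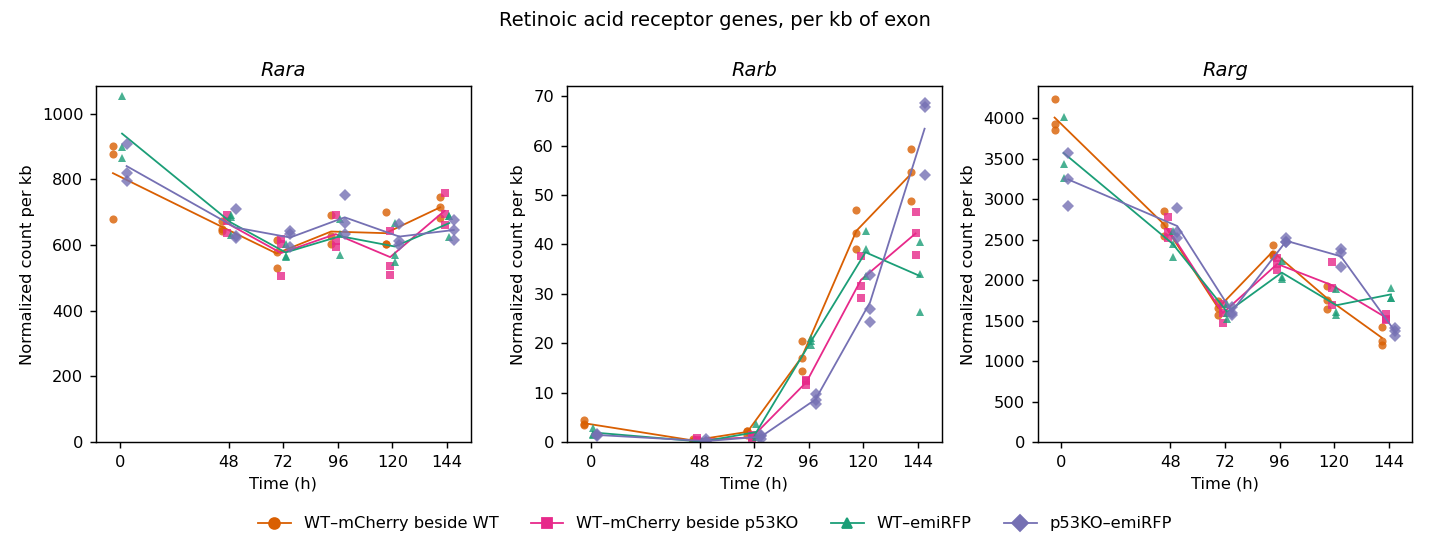
Normalized counts per kb of exon against time in h for Rara, Rarb and Rarg, with 1 point per library and lines through group means, on axes that start at 0. Rarg stands highest at each time, Rara changes least, and Rarb climbs from near 0 at 48 h, with p53KO–emiRFP lowest at 96 h (7.74 to 9.66) and highest at 144 h (54.0 to 68.5).

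In p53KO–emiRFP cells the same genes were followed from 0 to 144 h. The rise at 96 h was seen there too, and Rarb, Aldh1a2, Crabp1, Cyp26a1 and Cyp26b1 rose from 96 to 120 h. WT–mCherry libraries beside p53KO cells had means of 2864 ± 671 normalized counts of Crabp1 at 96 h and then 3281 ± 383 (SD, n = 3 each), a step that was not tested in that population alone. Of the 10 genes, 8 passed from 0 to 48 h (59.5% of all tested genes), 6 from 48 to 72 h (46.4%), 9 from 72 to 96 h (44.5%), 5 from 96 to 120 h (34.9%) and 8 from 120 to 144 h (22.7%). From 96 to 120 h Aldh1a2 rose by 1.40 on the log2 scale in p53KO–emiRFP cells (SE 0.15, adjusted p = 4.4e-11). Rarb rose by 1.72 (SE 0.20, adjusted p = 5.4e-10), Crabp1 by 1.28, Cyp26a1 by 1.18 and Cyp26b1 by 0.95 over the same step. From 120 to 144 h Aldh1a2 fell by 2.33 and Cyp26a1 by 1.93, while Rarb rose by 1.16 and Cyp26b1 by 1.51. Smaller steps depended on single replicates. Without replicate 3 the fall of Aldh1a2 from 0 to 48 h (adjusted p = 0.067) and the rise of Cyp26b1 from 96 to 120 h (adjusted p = 0.092) were lost. Without replicate 1 the rise of Cyp26a1 from 48 to 72 h (adjusted p = 0.06), the fall of Rarg from 0 to 48 h (adjusted p = 0.17) and the rise of Dhrs3 from 120 to 144 h (adjusted p = 0.28) were lost. Rarb from 48 to 72 h was lost without replicate 1 (0.13) or 2 (0.15), and Dhrs3 from 120 to 144 h also without replicate 2 (0.054). Without replicate 2 that of Crabp2 from 120 to 144 h was lost (adjusted p = 0.12). Rdh10 from 72 to 96 h was lost without replicate 1 (adjusted p = 0.1) or 3 (adjusted p = 0.19), and Crabp2 from 96 to 120 h, at −0.29, passed only with the replicate block (adjusted p = 0.027), without a low-count filter (adjusted p = 0.001) or without replicate 1 (adjusted p = 0.03).

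The genotype comparison asked how p53KO–emiRFP cells differ from WT–emiRFP cells at the same time. The 2 populations came to differ most in Aldh1a2, Crabp1, Crabp2 and Cyp26a1. Aldh1a2 and Crabp1 were lower in p53KO–emiRFP cells at 96 h and higher at 120 h, and Crabp2 was higher from 72 h on. In fits of the 12 libraries of a time point (9 at 0 h), 0 of the 10 genes passed at 0 h (6.13% of all tested genes), 1 of 9 at 48 h (22.0%), where Rarb was too low to be tested, 4 of 10 at 72 h (29.1%), then 5 at 96 h (23.3%), next 8 at 120 h (51%) and 8 at 144 h (65.3%). Among all tested genes 27.3% were called higher and 23.7% lower at 120 h, against 6 and 2 of the 10, and 33.1% higher and 32.1% lower at 144 h, against 7 and 1. The median log2 fold change of the 10 genes was 0.34 at 120 h and 0.92 at 144 h, beside 0.05 and 0.01 over all tested genes.

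**Figure D3:**
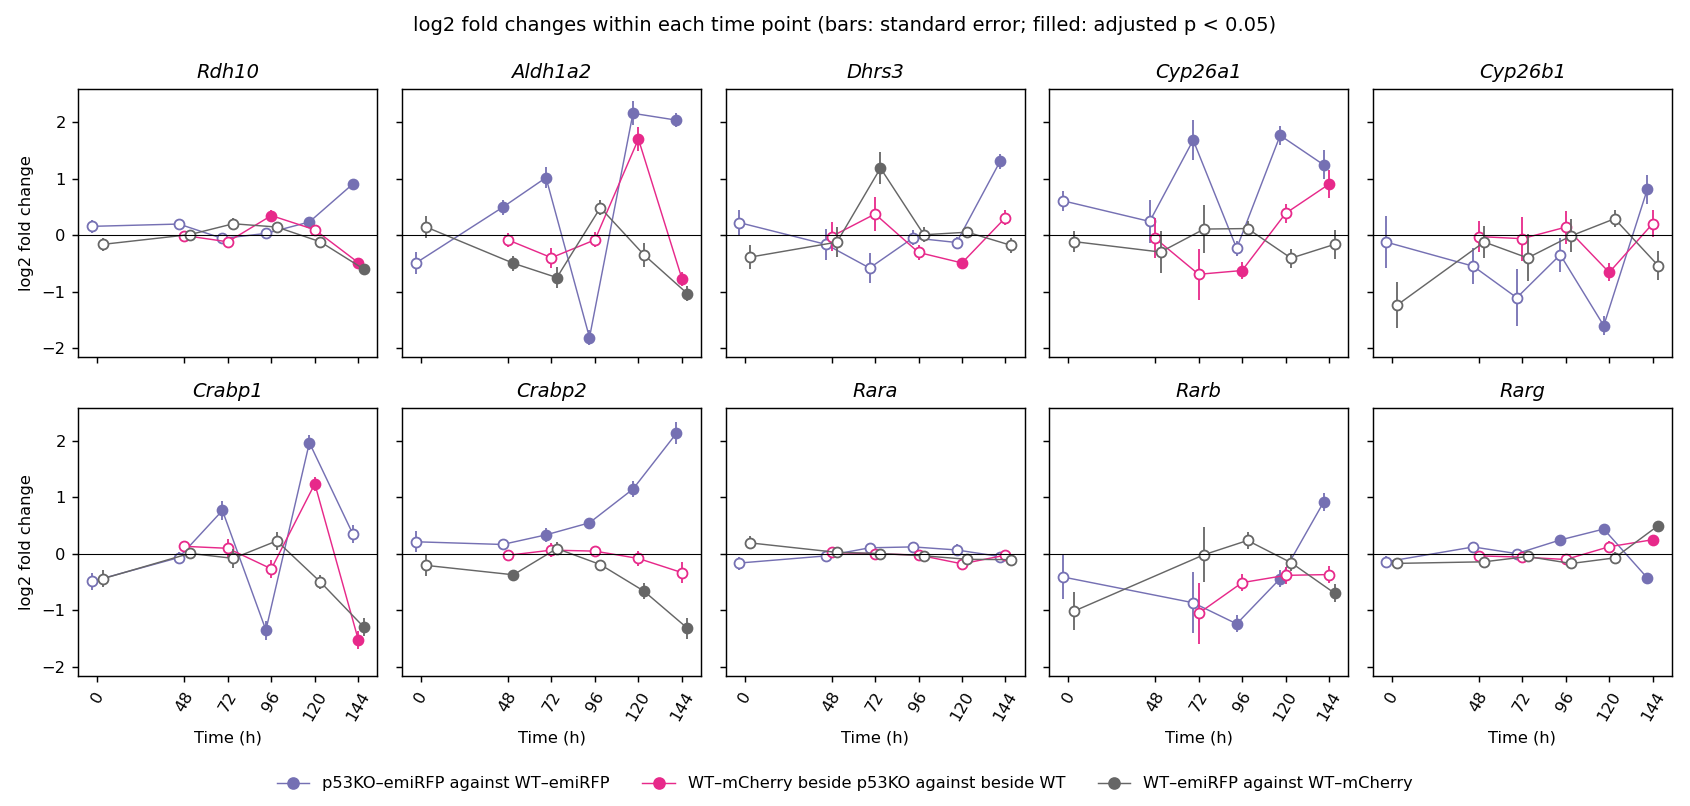
log2 fold changes (points) with standard errors (bars) against time in h for the 10 genes in 3 comparisons, with filled points where the edgeR adjusted p was under 0.05. Aldh1a2 and Crabp1 change sign in the genotype comparison between 96 and 120 h, Crabp2 climbs to 2.14 at 144 h, and Rara stays near 0 in all 3 comparisons. The comparisons share control libraries, so their lines are not independent.

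At 0 and 48 h differences were small. At 0 h the unadjusted p was under 0.05 for Aldh1a2 (−0.49), Cyp26a1 (0.61) and Crabp1 (−0.49), and with the replicate number as a block Aldh1a2 (adjusted p = 0.049) and Cyp26a1 (adjusted p = 0.035) passed. DESeq2 called 1 gene there, Crabp1 (adjusted p = 0.032). At 48 h Aldh1a2 had 108, 122 and 92.6 normalized counts in p53KO–emiRFP and 82.4, 75.1 and 70.4 in WT–emiRFP cells. The log2 fold change was 0.50 (SE 0.14, adjusted p = 0.018), and the call was lost without replicate 1 (adjusted p = 0.097) or 2 (adjusted p = 0.17), and in the fit of all 23 groups (adjusted p = 0.24). The p53KO–emiRFP mean of 108 ± 14.9 was close to the 107 ± 4.72 of WT–mCherry cells beside WT cells, and WT–emiRFP cells were lower at 76.0 ± 6.07 (SD, n = 3 each). With the block, Rdh10 (0.20), Rarg (0.12) and Crabp2 (0.17) passed as well, which made 4. The block fit called 7262 of 17686 tested genes, against 3899 without the block.

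At 72 h the 4 genes that passed were all higher in p53KO–emiRFP cells. Aldh1a2 had 117, 92.5 and 99.7 normalized counts against 56.1, 38.5 and 57.8, a log2 fold change of 1.02 (SE 0.18, adjusted p = 8.1e-04). Cyp26a1 had 61.8, 50.7 and 40.3 against 15.8, 24.3 and 6.54, a log2 fold change of 1.69 (SE 0.35, adjusted p = 0.0023). Neither gene overlapped between the groups. Crabp1 was higher by 0.77 and Crabp2 by 0.34. Without replicate 1 Cyp26a1 (adjusted p = 0.062) and Crabp1 (adjusted p = 0.1) did not pass, and Crabp2 (adjusted p = 0.044) was lost without replicate 2 (0.23) or 3 (0.14) and in fits of the 2 groups or all 23 groups (0.11 in both). Dhrs3, at −0.58, did not pass (adjusted p = 0.12), but did with the block (0.012), without a low-count filter (0.021), without replicate 3 (0.0083) and in the fit of all 23 groups (0.038).

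At 96 h the synthesis enzyme gene stood far lower without p53. Aldh1a2 had 2304, 2825 and 3235 normalized counts in p53KO–emiRFP and 9698, 9192 and 10394 in WT–emiRFP cells. The groups did not overlap, and the log2 fold change was −1.81 (SE 0.14, adjusted p = 3.4e-07). Crabp1 had 1516, 1352 and 1885 against 3730.0, 3716 and 4676 (log2 fold change −1.35, SE 0.17, adjusted p = 4.3e-05). Rarb had 40.7, 44.7 and 50.9 against 108, 103 and 111 (log2 fold change −1.24, SE 0.15, adjusted p = 4.2e-05). Crabp2 went the other way with 11055, 10234 and 9745 against 6859, 7204 and 7105 (log2 fold change 0.55, SE 0.05, adjusted p = 2.2e-06). Rarg was higher by 0.25 (adjusted p = 0.0013), lost without replicate 1 (adjusted p = 0.06). Cyp26a1 had 2141, 1652 and 2334 against 2305, 2264 and 2629, which overlap, and its difference of −0.23 (adjusted p = 0.27) passed with the block (adjusted p = 8.3e-04), as did Rara at 0.13 (adjusted p = 0.01).

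At 120 h this order had turned around for Aldh1a2. It had 5762, 8748 and 7509 normalized counts in p53KO–emiRFP cells against 1992, 1679 and 1254 in WT–emiRFP cells, a log2 fold change of 2.16 (SE 0.21, adjusted p = 1.4e-06). Crabp1 had 3645, 4130.4 and 3796 against 1135, 983 and 838 (log2 fold change 1.97, SE 0.13, adjusted p = 2.9e-08). Cyp26a1 had 4894, 4914 and 4089 against 1678, 1269.6 and 1128 (log2 fold change 1.77, SE 0.17, adjusted p = 1.2e-06). In each of these genes the lowest p53KO–emiRFP library was above the highest WT–emiRFP library, at a time when 51% of all tested genes were called.

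Cyp26b1 changed in the direction opposite to its paralogue. It had 36.8, 38.1 and 45.2 normalized counts in p53KO–emiRFP and 124, 102 and 138 in WT–emiRFP cells at 120 h (log2 fold change −1.60, SE 0.17, adjusted p = 3.1e-06). Per kb, Cyp26a1 had 2336 ± 237 and Cyp26b1 7.47 ± 0.84 in p53KO–emiRFP cells (SD, n = 3 each). Crabp2 had 9569.8, 8025 and 7857 normalized counts against 4371, 3497 and 3607 (log2 fold change 1.15, SE 0.14, adjusted p = 7.9e-06). Rarg was higher by 0.44 (adjusted p = 0.0016), Rdh10 higher by 0.24 (adjusted p = 0.028) and Rarb lower by 0.44 (adjusted p = 0.027). These 3 smaller calls did not hold in every subset. Rarg was lost without replicate 1 (adjusted p = 0.069), Rdh10 without replicate 2 (0.17), without replicate 3 (0.15) and without a low-count filter (0.083), and Rarb without replicate 1 (0.24) or 3 (0.069).

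At 144 h most of the set was higher in p53KO–emiRFP cells, including Dhrs3, which had not passed at 120 h. Aldh1a2 had 1518, 1361 and 1504 normalized counts against 376, 334 and 355 (log2 fold change 2.04, SE 0.13, adjusted p = 8.7e-09). Rdh10 had 764, 811 and 736 against 382, 417 and 429 (log2 fold change 0.91, SE 0.09, adjusted p = 7.0e-07). Dhrs3 had 1049, 817 and 947 against 421, 378 and 336 (log2 fold change 1.31, SE 0.13, adjusted p = 9.1e-07). The groups did not overlap in any of these 3 genes, at a time when 65.3% of all tested genes were called.

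Both clearance enzyme genes, Crabp2 and Rarb were also higher at 144 h, and Rarg was lower. Cyp26a1 had 1245, 1351 and 1063 normalized counts against 545, 605 and 391 (log2 fold change 1.25, SE 0.25, adjusted p = 6.3e-04), and Cyp26b1, lower at 120 h, was higher by 0.81 (SE 0.25, adjusted p = 0.011). Crabp2 had 13788, 13817 and 10760.4 against 3708, 2919 and 2094, its largest difference (log2 fold change 2.14, SE 0.19, adjusted p = 3.0e-07). Crabp1 had 2789, 2671 and 1843 against 2232, 1954 and 1536, which overlap, and its difference of 0.35 (adjusted p = 0.062) passed with the block (adjusted p = 0.0016), with DESeq2 (adjusted p = 0.044), in the fit of all 23 groups (adjusted p = 0.045), without a low-count filter (adjusted p = 7.7e-06) and without replicate 3 (adjusted p = 0.0021). Rarb had 361, 357 and 284 against 214, 179 and 138 (log2 fold change 0.92, SE 0.16, adjusted p = 1.6e-04), so against WT–emiRFP cells it had gone from lower to higher between 120 and 144 h. Its range overlapped that of WT–mCherry cells beside WT at 144 h (257 to 312). Rarg did the reverse, with 5827, 5552 and 6002 against 7587, 7585 and 8126 (log2 fold change −0.42, SE 0.06, adjusted p = 4.1e-05). Rara passed at none of the 6 time points, apart from the block at 96 h, with log2 fold changes between −0.16 and 0.13.

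Whether the genotype difference itself changed between consecutive time points was tested as an interaction in the fit of all 69 libraries. The sign change of Aldh1a2 and Crabp1 from 96 to 120 h passed this test. Of the 10 genes, 0 passed from 0 to 48 h (5.98% of all tested genes) and 0 from 48 to 72 h (1.76%), 3 from 72 to 96 h (11%), 6 from 96 to 120 h (30.8%) and 7 from 120 to 144 h (16.9%). In the first of these steps without a call, edgeR without a low-count filter and DESeq2 each called 1 gene, and in the second 2 and 1. The unadjusted p was under 0.05 for 2 genes from 0 to 48 h (Aldh1a2 and Rarg) and for 2 from 48 to 72 h (Crabp1 and Rdh10). From 72 to 96 h the difference changed by −2.83 for Aldh1a2 (SE 0.32), −2.12 for Crabp1 (SE 0.25) and −1.92 for Cyp26a1 (SE 0.47), the last lost without replicate 1 (adjusted p = 0.15). From 96 to 120 h it moved up by 3.97 for Aldh1a2 (SE 0.22, adjusted p = 8.0e-21), by 3.32 for Crabp1 (SE 0.23, adjusted p = 1.9e-17) and by 2.00 for Cyp26a1 (SE 0.26, adjusted p = 7.8e-09).

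The neighbour comparison asked whether WT–mCherry cells express these genes differently beside p53KO than beside WT cells. The neighbours also differed in starting number (25 p53KO–emiRFP against 150 WT–emiRFP cells), so their genotype and number cannot be told apart. Calls were made from 96 h on. At 120 h Aldh1a2 and Crabp1 were higher beside p53KO cells. At 144 h both had turned lower, while Cyp26a1 was higher. Of the 10 genes, 0 of 9 passed at 48 h (0.0735% of all tested genes), 0 at 72 h (0.559%), then 2 at 96 h (3.93%), next 4 at 120 h (5.95%) and 5 at 144 h (25.5%). At 120 h 3.43% of all tested genes were called higher and 2.53% lower, against 2 and 2 of the 10, and at 144 h 10.1% and 15.4%, against 2 and 3. The median log2 fold change of the 10 genes was 0.01 at 120 h and −0.18 at 144 h, beside −0.01 and −0.03 over all tested genes. At 48 and 72 h DESeq2 and the fit with the block also called 0 of the genes, and the unadjusted p was under 0.05 for 0 genes at 48 h and for 1 at 72 h, Aldh1a2.

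At 96 h the differences were small. Cyp26a1 had 1504, 1153 and 1641 normalized counts beside p53KO cells and 2202, 1884 and 2532 beside WT cells, without overlap (log2 fold change −0.62, SE 0.14, adjusted p = 0.031). Rdh10 was higher by 0.35 (SE 0.09, adjusted p = 0.046). Both calls were lost in a fit of only the 2 groups (adjusted p = 0.054 for Cyp26a1 and 0.087 for Rdh10), and without replicate 1 (0.4 and 0.39) or 2 (0.052 and 0.21), and Rdh10 also without replicate 3 (0.078). The fit without replicate 1 called 0 of all 18376 tested genes, and that without replicate 2 called 24 of 18459. With the block 5 genes passed, the others being Dhrs3 (−0.30, adjusted p = 0.011), Crabp1 (−0.27, adjusted p = 4.4e-04) and Rarb (−0.51, adjusted p = 0.023). The block fit called 3830 of 18343 tested genes, against 720 without the block.

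At 120 h Aldh1a2 had 5545, 8488 and 6327 normalized counts in WT–mCherry cells beside p53KO cells and 2549, 2099.7 and 1596 beside WT cells. The lowest value beside p53KO cells was above the highest beside WT cells, and the log2 fold change was 1.71 (SE 0.21, adjusted p = 5.8e-04). Crabp1 had 3360.5, 3617 and 2865 against 1603, 1413 and 1148 (log2 fold change 1.24, SE 0.13, adjusted p = 2.7e-04). Subtracting the emiRFP RNA estimated from H2bc14 left 1.69 for Aldh1a2 and 1.22 for Crabp1, and subtracting that estimated from H2bc21 left 1.66 and 1.17. Side by side, the Aldh1a2 means at 120 h were 2081 ± 477 in WT–mCherry cells beside WT cells, 6787 ± 1525 beside p53KO cells, 7340 ± 1500 in p53KO–emiRFP and 1642 ± 370 in WT–emiRFP libraries (SD, n = 3 each).

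The other calls at 120 h were lower beside p53KO cells. Dhrs3 had 485, 547 and 499 normalized counts against 667, 717 and 762 (log2 fold change −0.49, SE 0.09, adjusted p = 0.0078), lost without replicate 1 (adjusted p = 0.15) or 3 (adjusted p = 0.084). Cyp26b1 had 64.7, 56 and 67.6 against 112, 88 and 96.2 (log2 fold change −0.66, SE 0.16, adjusted p = 0.028). This call was lost without any 1 of the 3 replicates (adjusted p = 0.35, 0.078 and 0.11), in fits of the 2 groups (0.078) or all 23 groups (0.072), and after the subtraction by H2bc21 (0.086). Cyp26a1, at 2368, 2757 and 1928 against 2172, 1788 and 1429, overlapped between the groups and did not pass (0.39, adjusted p = 0.20), though it did in some other fits, among them the one without a low-count filter (adjusted p = 4.1e-05). With the replicate number as a block, Cyp26a1 (adjusted p = 0.0035), Rara (−0.18, adjusted p = 0.01) and Rarb (−0.385, adjusted p = 0.012) passed. There 1 pair of libraries correlated at 0.072 and the others at 0.577 and 0.626. That fit called 3826 of 18860 tested genes, against 1123 without the block.

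**Figure D4:**
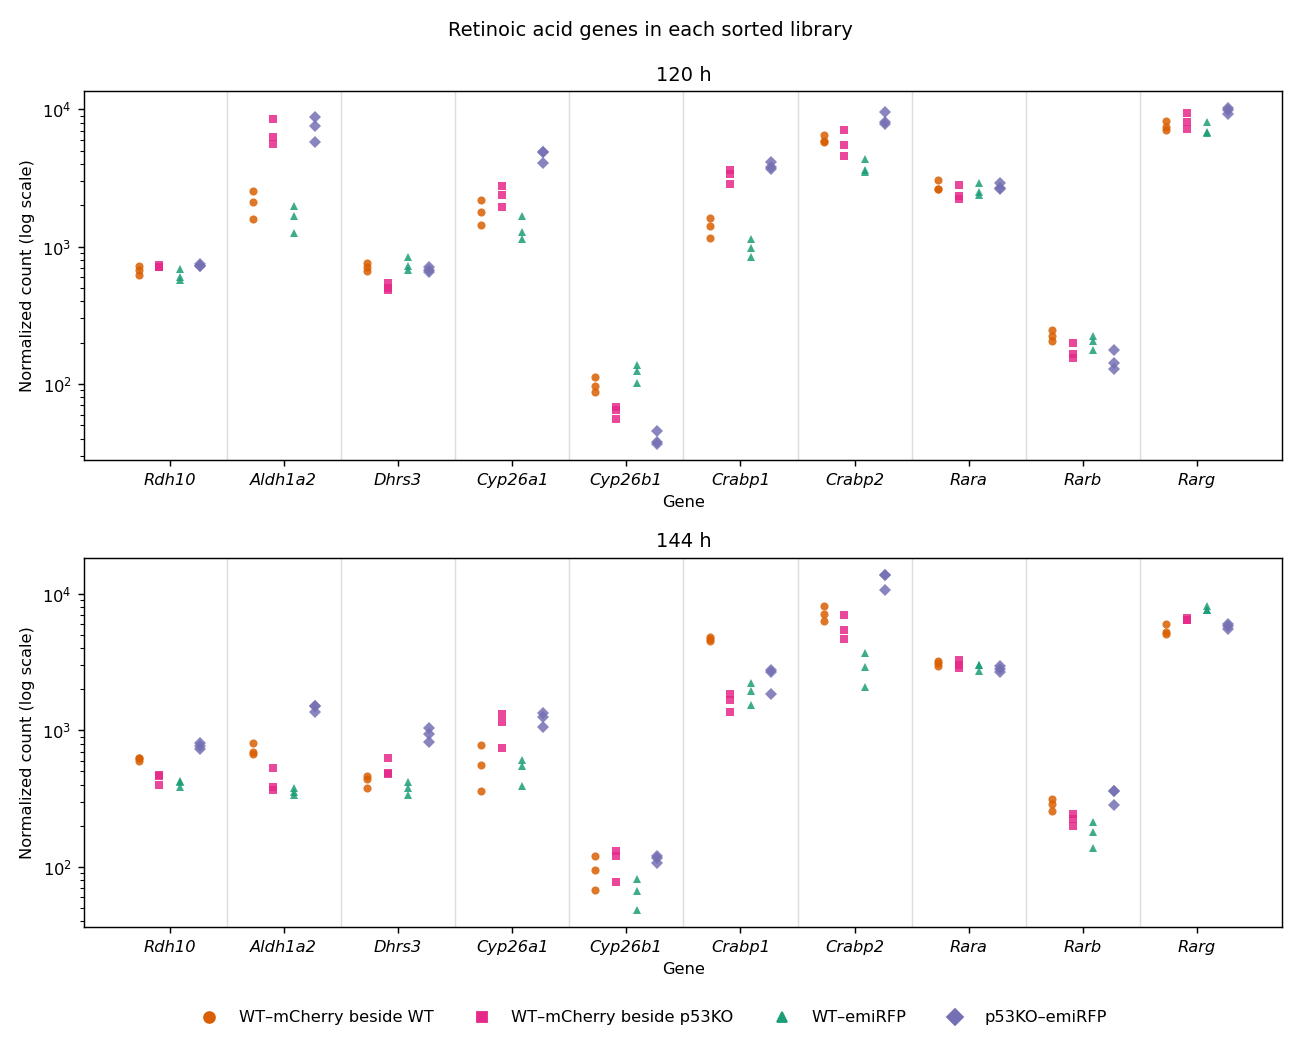
Normalized counts (log scale) of the 10 genes in each sorted library at 120 h and 144 h, with 3 points per population. At 120 h Aldh1a2 and Crabp1 of WT–mCherry cells beside p53KO cells lie beside those of p53KO–emiRFP cells, and at 144 h Crabp1 is highest in WT–mCherry cells beside WT cells (4546 to 4832).

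At 144 h Crabp1 had 1855, 1682 and 1355 normalized counts in WT–mCherry cells beside p53KO cells against 4651, 4832 and 4546 beside WT cells (log2 fold change −1.52, SE 0.16, adjusted p = 6.4e-05). Aldh1a2 had 528, 367 and 387 against 672, 694 and 812 (log2 fold change −0.76, SE 0.12, adjusted p = 9.1e-04), and Rdh10 473, 462 and 395 against 596, 632 and 628 (log2 fold change −0.48, SE 0.09, adjusted p = 0.0019). In all 3 genes the groups did not overlap, and the share of all genes without overlap was not counted. After the subtraction of emiRFP RNA the Aldh1a2 difference was larger, at −1.21 by H2bc14 and −1.60 by H2bc21.

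Cyp26a1 went the other way at 144 h, with 1153, 1329 and 746 normalized counts beside p53KO cells against 562, 785 and 362 beside WT cells. These overlap, and the log2 fold change of 0.91 (SE 0.25, adjusted p = 0.018) was lost without replicate 1 (adjusted p = 0.17). Rarg was higher by 0.25 (adjusted p = 0.011), lost without replicate 1 (0.16) or 3 (0.061). With the block 8 genes passed, the others being Dhrs3 (0.31, adjusted p = 0.012), Crabp2 (−0.34, adjusted p = 0.0025) and Rarb (−0.36, adjusted p = 0.009). The block fit called 7221 of 19431 tested genes, against 4954 without the block. Crabp2 and Rarb also passed after either subtraction, with adjusted p = 0.031 and 0.04 by H2bc14.

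The WT clones differed from each other as well, and this is the background for both comparisons, which share their libraries. WT–emiRFP and WT–mCherry cells of WT + WT gastruloids had most calls at 144 h. At 96 h Aldh1a2 did not overlap (9192 to 10394 normalized counts in WT–emiRFP and 5834 to 7619 in WT–mCherry cells), missed the threshold in edgeR (adjusted p = 0.070) and passed with DESeq2 (adjusted p = 0.0086) and with the replicate number as a block (adjusted p = 3.7e-05). Of the 10 genes, 0 passed at 0 h (11.1% of all tested genes), 2 of 9 at 48 h (8.89%), 2 at 72 h (7.64%), then 0 at 96 h (2.15%), next 1 at 120 h (1.24%) and 6 at 144 h (23.8%). At 144 h WT–emiRFP cells were lower in Aldh1a2 by 1.03 (adjusted p = 1.3e-04), Crabp1 by 1.29 (adjusted p = 1.3e-04), Crabp2 by 1.31 (adjusted p = 3.3e-04), Rarb by 0.69 (adjusted p = 0.0065) and Rdh10 by 0.60 (adjusted p = 4.5e-04), and higher in Rarg by 0.50 (adjusted p = 1.5e-04). The Rarb call was lost without replicate 2 (adjusted p = 0.065). Tissue markers differed as well at 144 h. In WT–emiRFP cells 5 of 6 somite markers (sums of 2093 to 2735 per kb against 3248 to 4798) and 2 of 6 presomitic markers (539 to 729 against 961 to 1065) were lower, and 5 of 6 naive pluripotency markers (24623 to 28646 against 17405 to 19100) and 3 of 6 endoderm markers (9000 to 9781 against 6745 to 8096) were higher. Haematoendothelial sums were higher (1258 to 1327 against 982 to 1073) and tail bud sums lower (309 to 383 against 387 to 504). The endoderm list (Sox17, Foxa1, Foxa2, Cdh1, Epcam and Trh) already summed to 13003 to 15557.5 per kb in WT–mCherry mES cells. Beside WT cells at 72 h it summed to 28842 to 30185, so it does not measure endoderm alone. The part of these markers in the clone differences was not tested.

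Set beside the p53KO–emiRFP levels at 144 h, the 2 WT clones gave different distances. The mean of Aldh1a2 was 1461 ± 87.2 normalized counts in p53KO–emiRFP cells, 355 ± 21.2 in WT–emiRFP and 726 ± 75.3 in WT–mCherry cells of the same gastruloids (SD, n = 3 each). Crabp2 had 12788.5 ± 1756, 2907 ± 807 and 7224 ± 930.4, and Rarg 5794 ± 227, 7766 ± 312 and 5488 ± 508. The order differed for Crabp1, at 2434 ± 516, 1908 ± 350.4 and 4676 ± 145, so that the p53KO–emiRFP mean lay above one WT clone and below the other. At 120 h the means of Cyp26a1 were 1358 ± 286 and 1796 ± 372 in these WT clones and 4632 ± 470.5 in p53KO–emiRFP cells.

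At the earlier times there were 5 clone calls. WT–emiRFP cells were lower in Aldh1a2 by 0.49 at 48 h (adjusted p = 0.034) and by 0.75 at 72 h (adjusted p = 0.026), lower in Crabp2 by 0.37 at 48 h (adjusted p = 0.0033) and by 0.66 at 120 h (adjusted p = 0.032), and higher in Dhrs3 by 1.19 at 72 h (adjusted p = 0.018). Each of these was lost in 1 or more of the fits without a replicate. For Aldh1a2 those adjusted p ranged from 0.16 to 0.2 at 48 h and from 0.075 to 0.23 at 72 h. Crabp2 was lost without replicate 1 at 48 h (0.11) and without replicates 2 (0.11) and 3 (0.22) at 120 h, and Dhrs3 without replicates 1 (0.25) and 2 (0.2). In the fit of all 23 groups Aldh1a2 (0.34) and Crabp2 (0.16) at 48 h and Aldh1a2 at 72 h (0.12) were lost, and in fits of only the 2 groups Aldh1a2 at 48 h (0.054), and Aldh1a2 (0.087) and Dhrs3 (0.063) at 72 h. Aldh1a2 at 48 h also missed the threshold with DESeq2 (0.06) and without a low-count filter (0.062). With the block 3 genes passed at 48 h (Rarg added), 4 at 96 h (Aldh1a2, Crabp1, Crabp2 and Rarg), 3 at 120 h (Cyp26a1 and Crabp1 added) and 7 at 144 h (Cyp26b1 added). Over all tested genes the block called 5102 of 17686 at 48 h and 2929 of 18343 at 96 h. It called 2040 of 18860 at 120 h and 6578 of 19431 at 144 h. At 0 h the unadjusted p was under 0.05 for Cyp26b1, Rarb and Crabp1, and DESeq2 called 1 gene, Crabp1 (adjusted p = 0.04). At 96 h it was under 0.05 for Aldh1a2, Rarg and Crabp2, and DESeq2 called 3, Aldh1a2, Crabp2 and Rarg.

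Markers of several tissues moved with the same groups. Shares of all tested genes called, for comparison, were 23.3% at 96 h, 51% at 120 h and 65.3% at 144 h between genotypes, and 5.95% at 120 h and 25.5% at 144 h between neighbours. Of 6 presomitic mesoderm markers (Tbx6, Msgn1, Dll1, Hes7, Lfng and Mesp2), 5 were lower in p53KO–emiRFP cells at 96 h, all 6 were higher at 120 h and all 6 at 144 h, and none was at 0 in any group from 96 h. Their summed level at 120 h was 15205 to 18323 normalized counts per kb in p53KO–emiRFP, 1857 to 2362 in WT–emiRFP, 6704 to 8683 in WT–mCherry cells beside p53KO and 3026 to 3954 beside WT cells, and in the neighbour comparison all 6 were higher at 120 h, with 4 higher and 1 lower at 144 h. At 144 h the sums were 3672 to 3983, 539 to 729, 874 to 1112 and 961 to 1065 in the same order. Of 5 tail bud and caudal epiblast markers (T, Wnt3a, Fgf8, Nkx1-2 and Cdx2), all 5 were higher in p53KO–emiRFP cells at 96, 120 and 144 h. Their sum at 144 h was 5513 to 5698 per kb there and 309 to 383 in WT–emiRFP cells. All 6 somite markers (Meox1, Tcf15, Foxc2, Pax3, Uncx and Pax1) were higher in p53KO–emiRFP cells at 144 h, with sums of 10278 to 13871 and 2093 to 2735, and at 120 h 1 was higher and 1 lower. At 120 h all 6 naive pluripotency markers were lower in the knockout cells, with sums of 3145 to 3243 per kb against 18312 to 20467 in the WT–emiRFP libraries. The 6 haematoendothelial markers (4 lower) summed to 214 to 291 against 1019 to 1032. The 6 neural markers summed to 2831 to 3171 against 5837 to 6847, although 1 was called higher and 1 lower and their median log2 difference was 0.23. This list (Sox1, Sox2, Pax6, Irx3, Olig2 and Nkx6-1) summed to 11830 to 14370 per kb in WT–emiRFP mES cells. Like the endoderm list, it therefore does not measure its tissue alone. Of 6 endoderm markers 4 were lower, and of 6 cardiac markers 2 were higher and 2 lower. The 6 naive pluripotency markers were also lower at 96 h (3419 to 3717 against 7715 to 8798) and 144 h (3732 to 5632 against 24623 to 28646). Sums at 96 h were also lower for somite (694 to 867 against 1075 to 1379) and haematoendothelial markers (255 to 279 against 295 to 358). The neural sum was lower too (2595 to 3166 against 3256 to 3428), the endoderm sum higher (15920.5 to 16393 against 13944 to 15671), and the cardiac sums overlapped. At 144 h 3 haematoendothelial (382 to 438 against 1258 to 1327), 3 endoderm (3705 to 5019 against 9000 to 9781) and 3 cardiac markers (131 to 155 against 303 to 472) were lower. Of the neural markers 3 were higher and 1 lower then, with sums of 5237 to 5740 against 7505 to 8907. Other lists also differed between WT–mCherry cells by neighbour. Of the 5 tail bud markers 4 were higher beside p53KO at both 120 h (sums of 8101 to 10226 per kb against 5404 to 6413) and 144 h (954 to 1254 against 387 to 504). Of 6 haematoendothelial markers 3 were lower at 120 h (476 to 552 against 699 to 829). The naive pluripotency sum was lower at 120 h (11372 to 12300 against 14046 to 17184) and overlapped at 144 h (17762 to 20736.5 against 17405 to 19100). Of 6 neural markers 1 was lower at 120 h and 4 at 144 h (6059 to 7597 against 7695 to 8652), and of 6 cardiac markers 2 were higher at 144 h (364 to 602 against 190 to 353). At 144 h the presomitic sums overlapped. The part of these shifts in tissue markers in the differences of the retinoic acid genes was not tested.

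**Figure D5:**
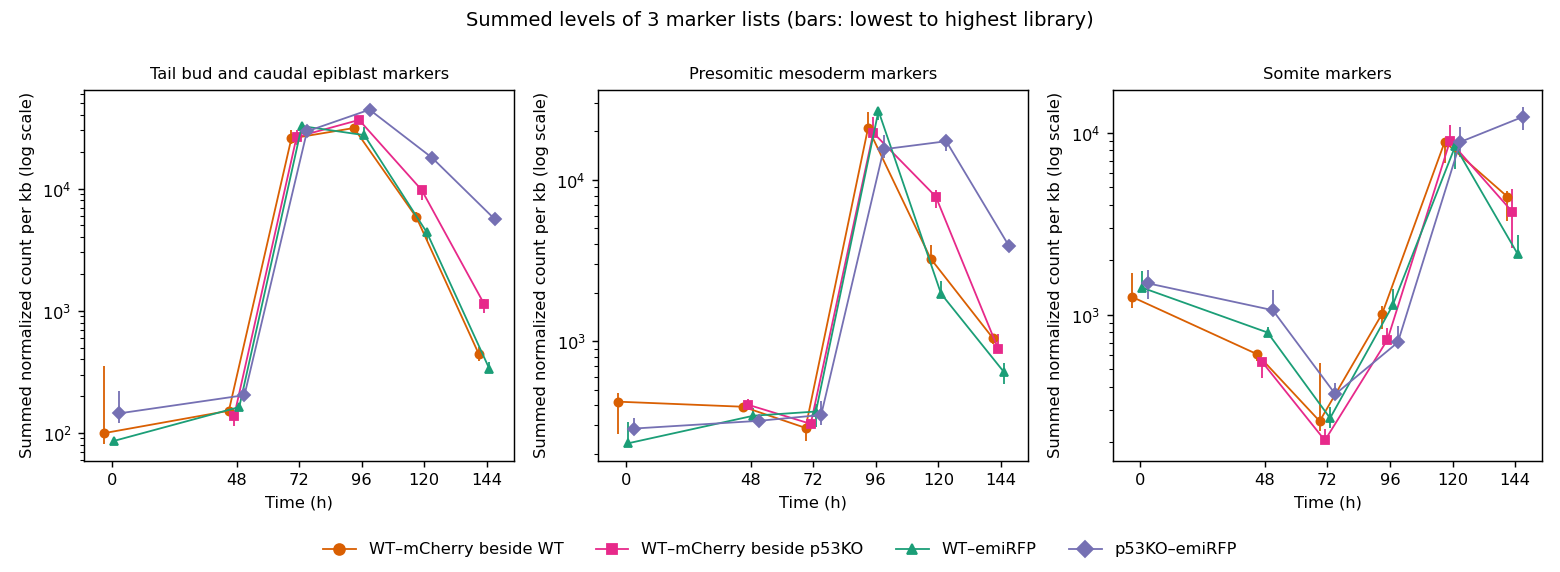
Summed normalized counts per kb (log scale) of 5 tail bud and caudal epiblast, 6 presomitic mesoderm and 6 somite markers against time in h, with medians of 3 libraries and bars from the lowest to the highest. Presomitic markers of p53KO–emiRFP cells are the lowest set at 96 h and the highest at 120 and 144 h.

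Of 27 other genes of the pathway (retinol uptake, other dehydrogenases, RXR partners, coregulators), 17 of 23 tested passed between genotypes at 120 h, 13 higher and 4 lower, and 18 of 25 at 144 h, 11 higher and 7 lower. Over all tested genes 51% and 65.3% were called, so the count at 144 h was near the background. Stra6l, the retinol transporter also called RBPR2, stood out with 2087 ± 211 normalized counts in p53KO–emiRFP against 566 ± 51.2 in WT–emiRFP cells at 120 h (log2 fold change 1.88, adjusted p = 3.3e-08) and 1072 ± 64.0 against 101 ± 14.1 at 144 h (log2 fold change 3.40, adjusted p = 1.5e-10; SD, n = 3 each). At 120 h Rbp4, the retinol carrier, was higher by 1.04 (adjusted p = 1.4e-04) and the coactivator gene Ncoa3 lower by 1.03 (adjusted p = 2.6e-06). At 144 h the retinol receptor gene Stra6 was higher by 1.85 (adjusted p = 2.3e-08) and Fabp5, another carrier of retinoic acid, by 1.83 (adjusted p = 3.2e-09). In the neighbour comparison 1 of 23 passed at 120 h, Rdh11 (0.32, adjusted p = 0.0081), and 6 of 25 at 144 h, 2 higher and 4 lower, near the background of 5.95% and 25.5%. Among the 6 were Stra6l (0.89, adjusted p = 3.3e-04), Dhrs4 (−0.56, adjusted p = 3.2e-04) and Fabp5 (−0.45, adjusted p = 0.0058).

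Of 14 genes known to respond to retinoic acid, 8 passed between genotypes at 120 h, 6 higher and 2 lower, and 13 at 144 h, 12 higher and 1 lower, where 51% and 65.3% of all tested genes were called. The count at 120 h was near that background. Their median log2 fold change was 0.28 at 120 h and 1.35 at 144 h, beside 0.05 and 0.01 over all tested genes. At 144 h they summed to 6859 to 7539 normalized counts per kb in p53KO–emiRFP and 4254 to 6807 in WT–emiRFP cells. WT–mCherry cells beside WT cells had 5195 to 8227, a range that holds the p53KO–emiRFP libraries. The Hox genes led. Hoxd4 had 440.1 ± 50.8 normalized counts in p53KO–emiRFP and 40.9 ± 5.86 in WT–emiRFP cells at 144 h (log2 fold change 3.42, adjusted p = 4.5e-07). Hoxb1 had 3499.6 ± 216 against 615 ± 192 (log2 fold change 2.51, adjusted p = 1.1e-07) and Hoxb4 1076 ± 100.2 against 208 ± 45.7 (log2 fold change 2.38, adjusted p = 5.5e-08; SD, n = 3 each). At 120 h Hoxd4 (1.68) and Hoxb1 (1.60) were higher too. Stra8, a germ cell gene induced by retinoic acid, was lower in p53KO–emiRFP cells at both times, by 1.67 at 120 h (adjusted p = 2.2e-04), with 853 ± 197 against 2717 ± 834 normalized counts, and by 1.24 at 144 h.

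In WT–mCherry cells by neighbour 2 of these 14 genes passed at 120 h, Nr2f1 (−0.82, adjusted p = 0.015) and Hoxb1 (0.41, adjusted p = 0.018), and 7 at 144 h, 3 higher and 4 lower, beside 5.95% and 25.5% of all tested genes. At 144 h the caudal gene Cdx1 was higher by 1.63 (adjusted p = 2.2e-04), and Nr2f1, an orphan receptor gene, was lower by 1.22 (adjusted p = 2.3e-04). Several of these Hox and Cdx genes also mark the caudal body axis, so the list does not measure retinoic acid alone.

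Over the 23 group means, the 14078 genes with a mean of at least 50 normalized counts were ranked by the likeness of their course (Pearson r of log2 values plus 1) to each of the 10 genes. Aldh1a2 was closest to Lrig3 (r = 0.967), Tril (0.964) and the presomitic Notch gene Lfng (0.957). Cyp26a1 was closest to Lsp1 (0.978), Pdgfra (0.976) and Gpc3 (0.971), and Dhrs3 to Hoxb9 (0.984), Tmem132c (0.981) and Olfml3 (0.978). Crabp1 was closest to Cxcr4 (0.936), S1pr3 (0.936) and Lsp1 (0.927), and Crabp2 to Itgb8 (0.971), Rnf122 (0.966) and Psd3 (0.953). For Rarb these were Baz2b (0.979), Tnrc18 (0.977) and Fhl1 (0.973), for Rarg Sall4 (0.904), Akr1b3 (0.897) and Tango6 (0.894), and for Rara Spc24 (0.904) and Atg14 (0.901). Rdh10 was closest to Extl2 (0.96), 1700086O06Rik (0.955) and Tmem246 (0.955), and Cyp26b1 to Ssc5d (0.945), Mecom (0.937) and Nrp1 (0.935). These correlations describe 23 groups that share replicate numbers and a common time course.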

How the data were processed

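Raw read counts per gene were deposited by the authors for all 69 libraries as 1 table (unit, counts). Per the submitters' processing notes, reads were trimmed with Trim Galore 0.6.7 and aligned with STAR 2.7.11b to GRCm38.p6. Whether counting used strand was not given in the sources used here. Groups came from the sample labels, and 0 columns of the table were left unused.

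Normalized counts are counts divided by DESeq2 median-ratio size factors. Differences within a time point were tested with edgeR 4.0.16 (quasi-likelihood, filterByExpr, limma 3.58.1, R 4.3.3) on the 12 libraries of that time (9 at 0 h), and steps in time and changes of the genotype difference on all 69. P-values were adjusted by Benjamini-Hochberg across every gene tested, with a threshold of 0.05. Tables and figures used Python 3.11.15, pandas 2.3.3, numpy 2.4.6 and matplotlib 3.10.9. Per the study's reporting summary, the RNA-seq samples came from 3 independent experiments performed at different times. The labels number the libraries of each group 1 to 3 without saying whether a number marks an experiment.

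Libraries with the same number deviated together. Over 14078 genes with a mean of at least 50, the correlation of deviations from the group means was 0.038 to 0.688 in 51 pairs (median 0.349). All 3 pairs passed 0.1 in 14 of 17 comparisons, and there the fit with the number as a block is printed where it changed a call. The exceptions, each with 1 pair under 0.1, were the WT clones at 0 and 72 h and the neighbour comparison at 120 h. For the neighbours at 120 h the block is printed as well.

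The alternatives were that block, TMM normalization, DESeq2 1.42.0, no low-count filter, all 23 groups or only the 2 groups compared, each replicate left out, and subtraction of emiRFP RNA estimated from H2bc14 or H2bc21. On simulated counts for the genotype comparison at 120 h (17677 genes, 200 changed 2-fold), edgeR and DESeq2 each recovered 81.0%, with 5.26% and 16.1% false calls, and with no gene changed they made 0 and 5 calls. The simulated libraries were drawn independently, without the shared deviations seen above. Far fewer genes were changed than the 51% called in the data, so these rates need not hold there.

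The 10 genes and all gene lists were chosen with earlier results of these data known. Of the 2 longer lists, the text names up to 3 genes per genotype or neighbour comparison at 120 and 144 h, those past the threshold with the largest change and a mean log2 CPM of at least 1. Hoxb1, Stra8 and others that recur at another time are given there too. Course likeness used log2(normalized count + 1). A gene of the longer lists and a gene of like course that this rule would name are not reported here.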

Additional observations from a re-analysis of the deposited data

Results flagged for a closer look

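The genotype difference of 16 gene and step combinations changed between consecutive time points by a test of the difference itself, the interaction term of the edgeR fit of 69 libraries with Benjamini-Hochberg adjustment over all tested genes. Values are changes of the difference between p53KO–emiRFP and WT–emiRFP cells on the log2 scale.

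From 72 to 96 h the differences of Aldh1a2 (−2.83, SE 0.32, adjusted p = 5.3e-09), Crabp1 (−2.12, SE 0.25, adjusted p = 1.1e-08) and Cyp26a1 (−1.92, SE 0.47, adjusted p = 0.0040) moved down. Cyp26a1 did not pass without replicate 1 (adjusted p = 0.15).

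From 96 to 120 h Aldh1a2 (3.97, SE 0.22, adjusted p = 8.0e-21), Crabp1 (3.32, SE 0.23, adjusted p = 1.9e-17) and Cyp26a1 (2.00, SE 0.26, adjusted p = 7.8e-09) moved up, and so did Rarb (0.80, adjusted p = 0.021) and Crabp2 (0.60, adjusted p = 0.020). Cyp26b1 moved down (−1.25, adjusted p = 0.012). The last 3 depended on single replicates. Without replicate 1 the adjusted p was 0.18 for Cyp26b1 and 0.1 for Rarb, without replicate 2 it was 0.15 for Cyp26b1, 0.12 for Rarb and 0.21 for Crabp2, and without replicate 3 it was 0.074 for Crabp2.

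From 120 to 144 h Cyp26b1 (2.41, SE 0.34, adjusted p = 2.2e-07), Dhrs3 (1.44, SE 0.22, adjusted p = 1.1e-06), Rarb (1.36, SE 0.25, adjusted p = 4.7e-05), Crabp2 (0.99, SE 0.21, adjusted p = 2.7e-04) and Rdh10 (0.67, SE 0.12, adjusted p = 3.1e-05) moved up. Crabp1 (−1.62, SE 0.22, adjusted p = 1.5e-07) and Rarg (−0.86, SE 0.11, adjusted p = 3.3e-08) moved down.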

How the results depend on the processing

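None of the calls for the 10 genes changed direction under the alternatives run, and TMM normalization changed no call. Among differences past the threshold in neither fit, the sign changed for 1 with TMM, 1 with DESeq2, and 16, 20 and 25 without replicates 1, 2 and 3. The numbers here count those of the 10 genes past the threshold. With the replicate number as a block, 2 genes passed between genotypes at 0 h and 4 at 48 h, and between neighbours 5 at 96 h, 7 at 120 h (Cyp26a1, Rara and Rarb added, where 1 pair of libraries correlated at only 0.072) and 8 at 144 h. Between WT clones the block gave 1 at 0 h, 4 at 96 h and 3 at 120 h. Of 317 values in all, the block added 28 calls and removed 0. It also raised the calls over all tested genes, for example from 1123 to 1799 of 18323 between genotypes at 0 h. Between neighbours at 96 h they rose from 720 to 3830 of 18343. Without a low-count filter the counts were 1 for the genotypes at 0 h, 4 for the neighbours at 96 h, 2, 1, 3 and 4 for the clones at 0, 48, 96 and 120 h, and 1 and 2 for the change of the genotype difference from 0 to 48 h and from 48 to 72 h. DESeq2 gave 1 for the genotypes at 0 h, 1, 1, 3 and 2 for the clones at those times, and 1 for each of the same changes. In the fit of all 23 groups they were 0 for the genotypes at 48 h and 2, 0 and 1 for the clones at 0, 48 and 72 h. In fits of only the 2 groups they were 0 for the neighbours at 96 h and 1, 0 and 1 for the clones at 48, 72 and 96 h.

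With each replicate left out in turn, the counts ranged from 0 to 3, 0 to 1 and 2 to 4 for the genotypes at 0, 48 and 72 h, from 0 to 1, 2 to 3 and 3 to 5 for the neighbours at 96, 120 and 144 h, and from 0 to 2 at 0 h and 0 to 1 at 48, 72, 96 and 120 h for the clones. For the change of the genotype difference from 96 to 120 h they ranged from 3 to 5. Calls over all tested genes moved as well. Between neighbours at 96 h they were 0, 24 and 579 without replicates 1, 2 and 3, against 720 with all libraries. Between neighbours at 120 h they were 140, 609 and 385, against 1123. Between genotypes at 0 h they rose to 1824 without replicate 1, against 1123. The cause of these shifts was not tested beyond the loss of libraries. With 3 libraries per group, small differences such as those of Rdh10 and Rara were near the limit of detection, and a call that was missed does not show equal levels. The low counts of Rarb and Cyp26b1 before 96 h limit their precision.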
